A study of Mus musculus with 12 samples.

Results

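All 12 RNA libraries of the study were fitted together to measure 1 quantity: the average difference between Setdb1 mutants and controls over LT-HSC and MPP, the stem and progenitor cells of the mouse fetal liver. The libraries were the whole series (12 of 12), 6 mutant and 6 control, and the model held cell type as an additive factor, so that each gene has a single genotype effect, called the shared effect here. The cells came from embryos at E13.5, and both cell types were LSK cells, the fraction rich in blood stem and progenitor cells. Of these, LT-HSC (long-term haematopoietic stem cells) carry CD150 but not CD48 on their surface, whereas the reverse pair of markers defined MPP (multipotent progenitors). The 3 LT-HSC mutants and 3 MPP mutants had the genotype Setdb1 p/p;vav-cre. Every control carried 1 p allele: in LT-HSC, control 1 was Setdb1 +/p;+/+ and lacked Cre while controls 2 and 3 were Setdb1 +/p;vav-cre, and in MPP, controls 1 and 2 lacked Cre (Setdb1 +/p;+/+) while control 3 had it (Setdb1 +/p;vav-cre). The labels do not say what the p allele is. The vav-cre transgene expresses Cre recombinase under a promoter active in blood and endothelial cells, and an effect of Cre itself cannot be told apart from that of the genotype in the 3 controls without it. Between 500 and 1000 LT-HSC or 20000 MPP were sorted per sample, and no label states that each sample is its own animal. The p-values therefore measure only how these samples vary, and that variation may be technical.

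SETDB1 is a histone methyltransferase that trimethylates lysine 9 of histone H3, a mark of silent chromatin. It is brought to transposable elements and to some genes by TRIM28 with zinc finger proteins and by the HUSH complex, and it is held stable by the cofactor ATF7IP. Germline genes are usually shut in other tissues by DNA methylation and by a Polycomb complex that holds the DNA-binding proteins E2F6 and MGA with MAX. In fetal liver, stem cells give rise to progenitors that commit to red cell, megakaryocyte, myeloid or lymphoid fates.

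The promoters of 4 genes that were higher in the mutants of both cell types are printed because E2F6 is known to bind the letters TCCCGC, and MGA with MAX the letters CACGTG, and each of the 4 holds a match to 1 of them. They were chosen for holding a match. Each is the 250 bases before the start site in RefSeq's GRCm38.p6 promoter table (for M1ap the RefSeq gene starts earlier, at 82946908, inside the printed run), written 5′ to 3′ along the gene, and the capitals mark the match on either strand (TCCCGC reads GCGGGA on the other strand).
Stag3 (chr5:138280259-138280508, plus strand): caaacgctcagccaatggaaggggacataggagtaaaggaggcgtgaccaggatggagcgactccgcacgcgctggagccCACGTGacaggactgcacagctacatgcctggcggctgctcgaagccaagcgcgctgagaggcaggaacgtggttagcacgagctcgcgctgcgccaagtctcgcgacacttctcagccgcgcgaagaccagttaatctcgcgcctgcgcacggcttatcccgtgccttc
Fbp2 (chr13:62858401-62858650, minus strand): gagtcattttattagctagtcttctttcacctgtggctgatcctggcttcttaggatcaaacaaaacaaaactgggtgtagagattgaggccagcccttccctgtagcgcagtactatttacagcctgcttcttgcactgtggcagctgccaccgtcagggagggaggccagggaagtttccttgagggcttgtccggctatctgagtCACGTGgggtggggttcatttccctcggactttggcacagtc
M1ap (chr6:82946672-82946921, plus strand): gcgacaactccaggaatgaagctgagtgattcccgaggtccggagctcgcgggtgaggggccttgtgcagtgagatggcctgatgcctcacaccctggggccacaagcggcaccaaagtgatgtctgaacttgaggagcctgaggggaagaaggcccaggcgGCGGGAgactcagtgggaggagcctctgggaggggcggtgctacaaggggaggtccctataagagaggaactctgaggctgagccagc
Tex19.1 (chr11:121145893-121146142, plus strand): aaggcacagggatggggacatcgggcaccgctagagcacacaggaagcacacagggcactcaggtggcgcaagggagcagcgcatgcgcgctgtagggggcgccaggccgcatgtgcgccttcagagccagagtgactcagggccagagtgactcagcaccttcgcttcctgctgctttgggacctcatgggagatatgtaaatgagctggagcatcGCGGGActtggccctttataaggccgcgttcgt
Among the promoters of 10570 tested genes, 8.45% held CACGTG and 29.9% held TCCCGC on either strand. Of the 156 promoters of genes called higher with at least a 2-fold change in each cell type, 25 (16.03%) held CACGTG, against 6 (2.34%) of the 256 promoters of genes called lower by as much. TCCCGC stood in 27.6% and 15.2% of these promoters. The groups also differed in CpG content, with a median of 9 CpG per 250 bases in the higher group, 5 in the lower group and 15 over all tested genes. Of the 12 genes named below as most firmly higher, 11 had a promoter in the table, and Dnah8, Tmem150c, Trap1a and Iqcg held neither run of letters. Of 9 such promoters of the lower genes, that of Jun held TCCCGC. A match is a run of letters and not evidence of binding.

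Libraries held 10119416 to 14113198 expected counts in all, with 14863 to 15780 genes above 0. The sort was visible in its own genes: Slamf1, which encodes CD150, lay between 34.7 and 41.6 CPM (counts scaled to a common library size by TMM) in LT-HSC and between 1.09 and 2.39 in MPP, and Cd48 between 10.6 and 30.4 in LT-HSC and between 149.97 and 259 in MPP. LT-HSC mutant 2 had the highest Cd48 of the LT-HSC libraries (30.4 CPM) and the highest Ly6a, the gene of the Sca-1 marker (93.6 CPM against 24.3 to 47.2 in the other LT-HSC libraries). The 3 LT-HSC mutants were the least alike of any group, with a chi-square per gene of 24.8, 34.2 and 47.2 between pairs, against 5.01 to 19.195 in the other groups. The deposited tables carry a number of their own, which differs from the replicate number in the titles. In the 4 cases where an LT-HSC and an MPP library of 1 genotype share that number, their deviations from the group means correlated across genes (r = 0.202, 0.175, 0.107 and 0.153), so these 8 libraries may come from 4 fetuses. No label says so. With that number as a correlated block (limma-voom, estimated correlation 0.228), 2250 genes were called in place of 2596. Y-linked transcripts were present in 3 of the 12 libraries.

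Setdb1 itself did not pass the test. It stood at 83.9, 73.5 and 108 CPM in the LT-HSC controls, 66.5, 66.5 and 80.8 in the LT-HSC mutants, 140.2, 95.3 and 87.9 in the MPP controls and 87.0, 117 and 99.1 in the MPP mutants. The groups overlapped in both cell types, and the shared effect was log2 fold change of -0.20 (SE 0.135, adjusted p = 0.301). A deletion of part of the gene need not lower the gene's total count, so these values do not check the genotype labels.

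The shared effect reached 2596 of 13249 tested genes (19.6%) at an adjusted p under 0.05 in edgeR's quasi-likelihood test. Of these, 1234 genes (9.31% of the tested genes) were higher in the mutants and 1362 (10.3%) were lower. With upper-quartile scaling in place of TMM the split was 932 higher and 1603 lower, so the balance of directions depends on the scaling. A shared difference of at least 2-fold was found for 305 of the higher genes (2.3% of the tested genes) and 495 of the lower genes (3.74%). No overlap between mutants and controls in both cell types was seen for 619 genes with higher mutants (4.67%) and 720 genes with lower mutants (5.43%). Leaving out the 3 Cre-negative controls, which leaves MPP with 1 control library, lowered the count of called genes. In that fit the 1234 genes called higher with all libraries had a median log2 difference of 0.43, against 0.44. The 1362 genes called lower had -0.72, against -0.76. Both sets were chosen in a fit that held these same libraries, so their medians do not test an effect of Cre. Leaving out 1 library gave between 1610 and 3679 genes, with 1610 without MPP mutant 2, 1617 without MPP mutant 3 and 1684 without MPP control 3.

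Genes called for the shared effect mostly moved the same way in both cell types, but further in MPP. Of the genes called higher, 1233 of 1234 had a positive difference in both LT-HSC and MPP, and of those called lower, 1355 of 1362 had a negative one in both, against a common sign in 71.4% of all tested genes. An average over both cell types favours such genes, so this count describes the calls and tests nothing. The effect was larger in MPP for 83.4% of the higher and 78.2% of the lower genes. The median log2 difference of the higher genes was 0.31 in LT-HSC and 0.56 in MPP, and that of the lower genes was -0.56 and -0.93. Within the cell types the same fit called 250 genes (1.89%) in LT-HSC, 133 higher (1.0%) and 117 lower (0.883%), and 2792 (21.1%) in MPP, 1439 higher (10.9%) and 1353 lower (10.2%). Only 117 of the higher and 86 of the lower genes were called in each cell type alone, 816 and 840 were called in MPP and not in LT-HSC, and 12 and 23 in LT-HSC and not in MPP. A further 289 higher and 413 lower genes were called in neither cell type alone. The difference between the effects was itself called for 50 genes (0.377%), 22 of them also called for the shared effect. The median standard error was 0.132 for the shared effect, 0.177 within LT-HSC and 0.178 within MPP, on the log2 scale.

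**Figure D1:**
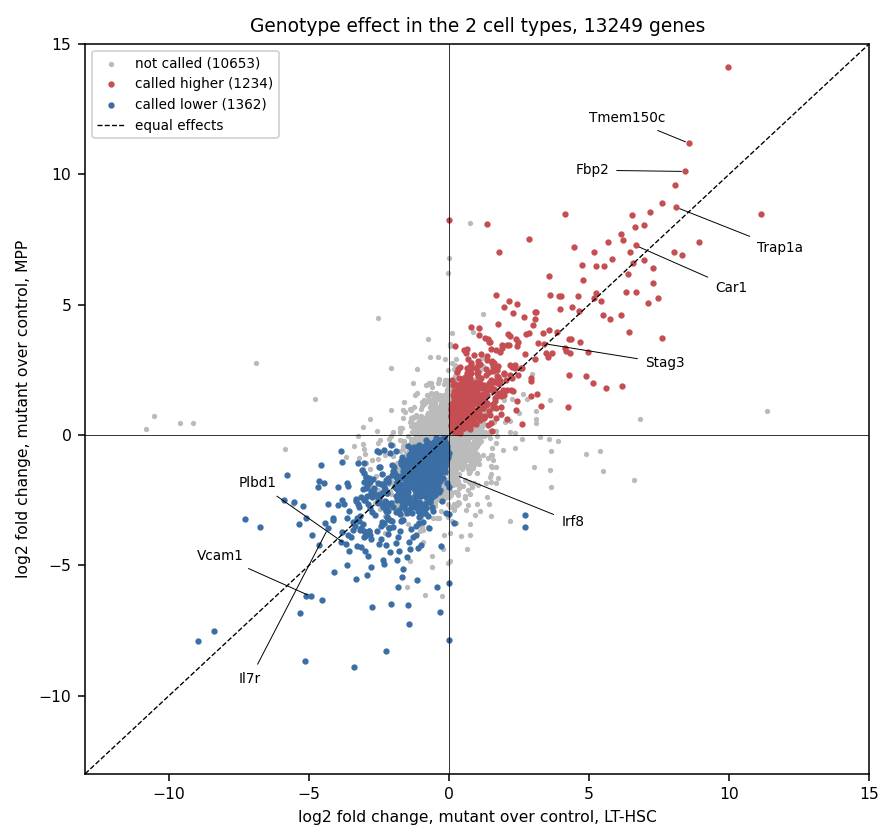
Log2 fold change of mutant over control in LT-HSC (x axis) and in MPP (y axis) for the 13249 tested genes, with genes called for the shared effect in red (1234 higher) and blue (1362 lower) and the rest in grey. Nearly all called genes lie in the quadrants of equal sign, and most have the larger effect in MPP, off the dashed line of equal effects.

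The genes most firmly higher in the mutants of both cell types included genes known from the germline and sperm, a carbonic anhydrase, a fructose-bisphosphatase, a pair of glutathione transferases and a kinase anchor. These were the 12 with the smallest p among genes at least 2-fold higher in each cell type with no overlap between the groups: Dnah8, Tmem150c, Stag3, M1ap, Trap1a, Car1, Fbp2, Akap5, Tex19.1, Iqcg, Gstp1 and Gstp2. Each of the 12 stayed called under each of the 28 alternative settings run for the shared effect.

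**Figure D2:**
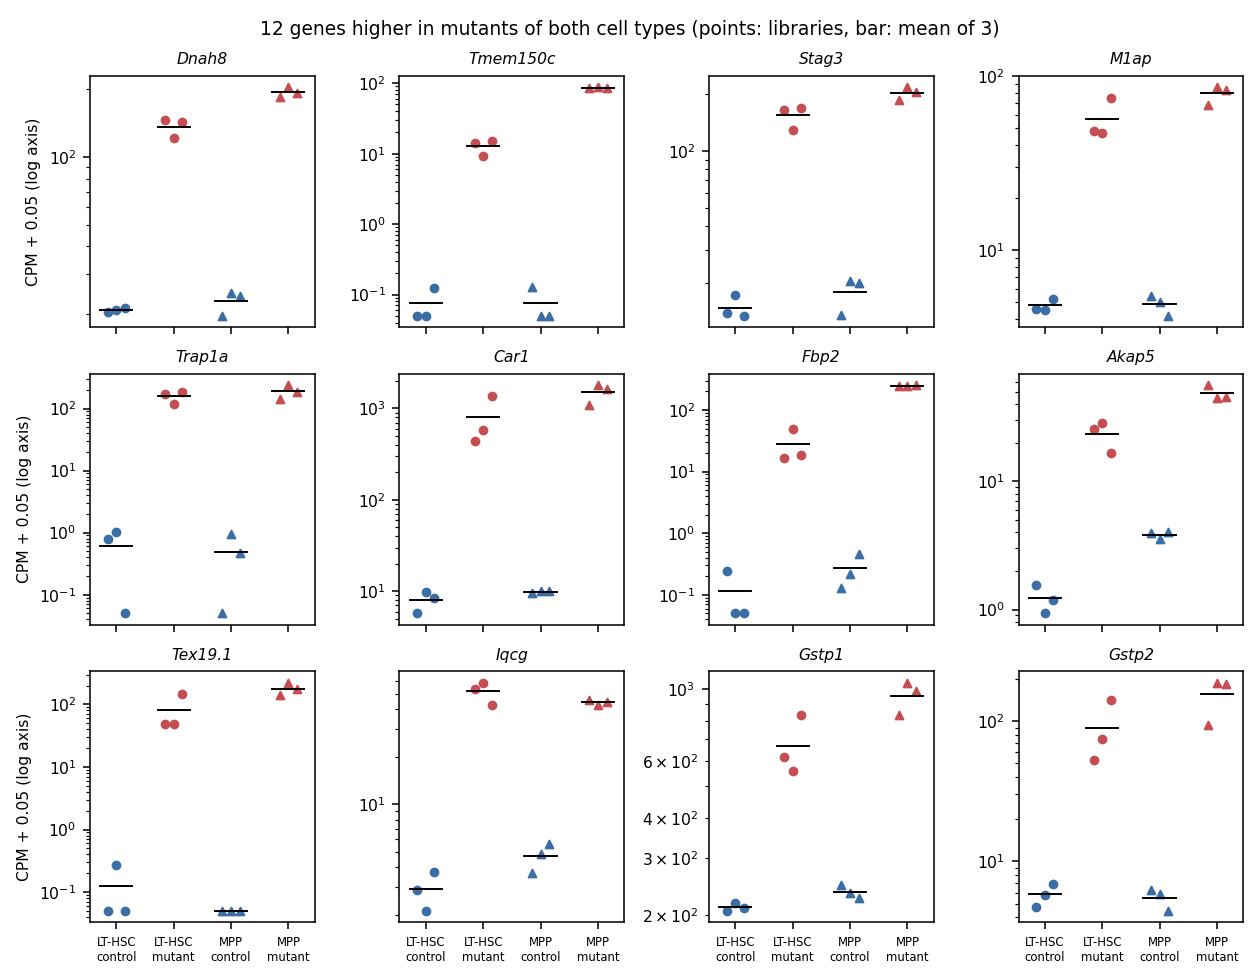
CPM plus 0.05 on a log axis in each of the 12 libraries (circles LT-HSC, triangles MPP, blue controls, red mutants) for the 12 genes named as most firmly higher, with a bar at each group's mean. In each panel all 6 mutants lie above all 6 controls.

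Genes of meiosis were among those that rose. Of the 22 listed genes of meiotic cohesin, pairing and recombination, 15 passed the filter on low counts, and 11 of these were called higher and 0 lower. Members such as Tex11, Syce3, Stk31 and Gm1564, with at most 3 counts over the controls, passed the filter only through the mutants and so had to differ. The 11 are therefore a description, not to be read against the 9.31% of all tested genes called higher. With the hepatoblast sum, described below, as a covariate 3 were called, with the macrophage sum 5 and with Cre-positive controls only 5. Stag3, the cohesin subunit that holds sister chromatids together in meiosis, stood at 13.8, 17.2 and 13.3 CPM in the LT-HSC controls, 165, 130.0 and 169 in the LT-HSC mutants, 13.499, 20.4 and 19.9 in the MPP controls and 186, 218 and 205 in the MPP mutants. Its 6 mutants lay far above its 6 controls, with a shared log2 fold change of 3.45 (SE 0.121, adjusted p = 2.59e-09). M1ap, a gene needed in male meiosis, stood at 4.56, 4.49 and 5.201 CPM in the LT-HSC controls, 48.5, 46.9 and 74.8 in the LT-HSC mutants, 5.40, 4.98 and 4.13 in the MPP controls and 68.5, 85.9 and 83.6 in the MPP mutants. Again no mutant came near a control, and the shared difference was 3.80 (SE 0.156, adjusted p = 1.37e-08).

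Dmc1, the recombinase that pairs homologous chromosomes, was expressed at a low level in the controls and rose in both cell types, from 2.41 to 3.76 CPM up to 9.01 to 12.2 CPM in LT-HSC and from 0.926 to 1.82 up to 6.26 to 11.5 in MPP, with a shared log2 fold change of 2.16 (SE 0.25, adjusted p = 0.000199). Gm1564, whose RefSeq symbol is Meioc and which keeps germ cells in meiosis, had 3 counts over the 6 controls and 1965 over the 6 mutants, a ratio of 742 (95% exact counting interval 254 to 3601). In single libraries it ran from 9.88 to 43.8 CPM in LT-HSC mutants and from 11.5 to 46.1 in MPP mutants. Tex11, an X-linked meiotic gene, had 0 counts in the controls and 184 in the mutants, at least 69.5-fold higher against a floor of 3 counts over the group, but 2 of the 6 mutants were at 0 (LT-HSC mutant 1 and MPP mutant 1). Syce3, a protein of the synaptonemal complex, had 0 and 47 counts, at least 17.7-fold higher. Intervals and floors cover counting error only.

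Within this group the amount differed between mutant libraries. Mutant 1 of each cell type was the lowest of its group for Gm1564 (9.88 and 11.51 CPM), Tex11 and Stk31. Both of these libraries carry the same number in the tables' names, and its part in the lower values was not tested. For Stag3, Dnah8 and Trap1a the lowest LT-HSC mutant was mutant 2.

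Genes of the piRNA pathway and germ granules, which silence transposable elements in germ cells, rose in part. Of 19 listed genes 12 were tested, and 7 were called higher and 1 lower. Several of the 7, Tex19.1, Tex19.2 and Gtsf1 among them, were near 0 in the controls and passed the filter through the mutants. The 7 are therefore a description, not to be read against the 9.31% of all tested genes called higher. With the hepatoblast sum 1 was called higher, with the macrophage sum 3 and with Cre-positive controls only 5. Tex19.1, a protein of germ cells and placenta that controls retrotransposons, was listed at 0 in 5 of the 6 controls and stood at 49.2, 49.4 and 144 CPM in the LT-HSC mutants and 140.5, 222 and 176 in the MPP mutants. Over both cell types the controls held 3 counts and the mutants 9125, a ratio of 3445 (95% exact counting interval 1179 to 16710). Tex19.2, its neighbour and close paralogue, was also called higher (5.23, adjusted p = 0.000267) at 1.24 to 3.39 CPM in the mutants. Some reads of such a pair may be shared between the genes by the authors' counting. Tex15, which directs piRNA-guided DNA methylation, stood at 4.45, 5.56 and 20.7 CPM in LT-HSC mutants and 3.31, 29.2 and 24.6 in MPP mutants, against 0.226 to 1.06 in the 6 controls. Gtsf1, a partner of PIWI proteins, was called higher and did not pass 2.81 CPM in any library. The 1 member called lower was Pld6, a mitochondrial phospholipase that also works outside the germline (log2 fold change of -0.65 (SE 0.175, adjusted p = 0.0224)).

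Sperm tail genes did not rise as a group. Of 23 listed genes of the axoneme and sperm flagella 11 were tested, and the median difference was -0.14. Of the 11, 2 were called higher and 0 lower, beside 9.31% and 10.3% of all tested genes. The 2 were among the firmest calls of all. Dnah8, a heavy chain of the dynein motor that bends sperm tails, stood at 20.3, 20.8 and 21.3 CPM in the LT-HSC controls, 145, 121 and 142 in the LT-HSC mutants, 19.6, 24.8 and 24.1 in the MPP controls and 184, 204 and 193 in the MPP mutants. Its shared difference was 2.90 (SE 0.0953, adjusted p = 2.59e-09). Iqcg, another protein of the sperm flagellum, stood at 2.84, 2.06 and 3.69 CPM in the LT-HSC controls, 53.4, 58.5 and 42.5 in the LT-HSC mutants, 3.63, 4.82 and 5.54 in the MPP controls and 45.7, 42.1 and 44.1 in the MPP mutants. Mutants and controls were well apart in each cell type (3.69, SE 0.206, adjusted p = 2.06e-07).

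Among X-linked germline antigens, 4 of 7 tested genes (14 listed) were called higher and 0 lower. Trap1a passed the filter through the mutants and so had to differ. The 4 are therefore a description, not to be read against the 9.31% of all tested genes called higher. Trap1a, which encodes an antigen of mouse tumour cells, stood at 0.726, 0.958 and 0 CPM in the LT-HSC controls, 173, 119 and 187 in the LT-HSC mutants, 0, 0.914 and 0.413 in the MPP controls and 141, 238 and 185 in the MPP mutants. The lowest mutant was at 119 CPM and the highest control at 0.958 CPM (8.39, SE 0.392). The other 3 were Xlr4a, Xlr4b and Xlr4c, near-identical copies whose reads may be split between them, with shared differences of 1.22, 0.98 and 1.25. The X chromosome held 2.59% of the genes called higher and 5.80% of those called lower, against 3.50% of the tested genes. Without MPP mutant 3, 2 of the 7 antigens were called.

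Tmem150c, which encodes a membrane protein, belonged to no germline list. It had 2 counts over the 6 controls and 3378 over the 6 mutants, a ratio of 1913 (95% exact counting interval 529 to 15804), and stood at 14.2, 9.11 and 15.1 CPM in LT-HSC mutants and 85.7, 86.9 and 86.1 in MPP mutants. Genes at no more than 0.5 CPM in each control and at least 5 CPM in each mutant numbered 4 among all tested genes: Tmem150c, Tex19.1, Fbp2 and Gm1564. The reverse pattern was found for 0 genes.

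Fructose bisphosphatases, which run the reverse of a committed step of glycolysis, rose in the mutants of both cell types. Fbp2, the muscle form, had 0.198, 0 and 0 CPM in the LT-HSC controls, 16.8, 49.8 and 18.4 in the LT-HSC mutants, 0.0771, 0.166 and 0.413 in the MPP controls and 246, 248 and 253 in the MPP mutants. In LT-HSC the controls held 3 counts and the mutants 973, a ratio of 377 (95% exact counting interval 129 to 1831). The 3 MPP mutants were nearly equal and far above the LT-HSC mutants, yet the difference between the cell types' effects was not called (adjusted p = 0.844). Fbp1, the liver form, lies next to it and stood at 0.462, 0.589 and 2.04 CPM in the LT-HSC controls, 6.59, 4.03 and 4.35 in the LT-HSC mutants, 2.93, 2.24 and 2.48 in the MPP controls and 72.9, 60.6 and 62.8 in the MPP mutants. Its shared difference was 3.70 (SE 0.456, adjusted p = 0.000306). These were the 2 called of 6 tested genes of gluconeogenesis. Fbp2 passed the filter through the mutants, so the 2 are not to be read against the 9.31% of all tested genes called higher. The other 4, among them Pck2 (-0.24) and Pcx (-0.06), were not called.

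Glycolysis genes were slightly higher, with 5 of 16 tested members called higher, beside 9.31% of all tested genes, 0 lower and a median difference of 0.24. They were Pfkp (0.57), Pgam1 (0.50), Eno1 (0.34), Ldha (0.35) and Hk1 (0.51), and 14 of the 16 members were higher in both cell types. Pgam1, phosphoglycerate mutase, was at 378 to 451 CPM in the LT-HSC controls and 526 to 665 in the LT-HSC mutants, and at 526 to 686 and 806 to 873 in MPP. The count of called members was 1 with Cre-positive controls only. It was 3 without LT-HSC control 1, MPP control 2 or 3 or MPP mutant 2 or 3, and 8 without LT-HSC mutant 1 or 3.

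Car1, a carbonic anhydrase of red cells and their progenitors, rose in both cell types. It stood at 5.68, 9.72 and 8.29 CPM in the LT-HSC controls, 437, 579.8 and 1372 in the LT-HSC mutants, 9.41, 10.1 and 10.0 in the MPP controls and 1096, 1799.6 and 1645 in the MPP mutants. The lowest mutant, at 437 CPM, lay far above the highest control, at 10.1 CPM, with a shared log2 fold change of 6.97 (SE 0.328, adjusted p = 4.3e-08). Other red cell genes did not share this pattern. Of 21 tested genes of the red cell membrane and its enzymes 11 were called higher and 1, Aqp1, lower, beside 9.31% and 10.3% of all tested genes. But the median difference was 0.12 in LT-HSC and 1.72 in MPP. Within LT-HSC only Car1 was called and within MPP 20 of the 21, all higher. Of all tested genes, 1.0% were called higher within LT-HSC and 10.9% within MPP. The summed CPM of the list was 2775, 2590.1 and 2711 in the LT-HSC controls, 2583, 2686 and 5138 in the LT-HSC mutants, 1825, 1561 and 1601 in the MPP controls and 4372, 6642 and 6174 in the MPP mutants. Among the LT-HSC mutants only LT-HSC mutant 3 was high. Without LT-HSC mutant 3, 6 members were called higher, without LT-HSC mutant 2 there were 15, and without LT-HSC mutant 1 there were 17. Leaving out any MPP library other than MPP mutant 1 left 4 or 5. Gata1, the transcription factor that drives red cell fate, was the 1 called member of 13 tested red cell factors (log2 fold change of 1.13 (SE 0.251, adjusted p = 0.00952)). Only 2 of 20 tested globin and haem genes were called, Uros and Fech (the latter at adjusted p = 0.0803 by limma-voom with the table number as a block). Both counts were near the 9.31% of all tested genes called higher. The globin and haem median was 1.18 in MPP and -0.17 in LT-HSC. Between 0 and 8 of these genes were called when 1 library was left out (8 without LT-HSC mutant 1, 7 without LT-HSC mutant 2, 5 without LT-HSC control 3, and 0 or 1 without LT-HSC mutant 3 or any MPP library but MPP mutant 1).

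Gstp1 and Gstp2, neighbouring glutathione transferases that detoxify reactive compounds, both rose. Gstp1 stood at 206, 218 and 209 CPM in the LT-HSC controls, 617, 559.7 and 831 in the LT-HSC mutants, 248, 234 and 226 in the MPP controls and 830.5, 1048 and 987 in the MPP mutants. Gstp2 stood at 4.69, 5.75 and 6.86 CPM in the LT-HSC controls, 52.7, 74.1 and 141 in the LT-HSC mutants, 6.17, 5.82 and 4.38 in the MPP controls and 93.1, 188 and 185 in the MPP mutants. Every mutant lay above every control for both genes, with shared differences of 1.84 (SE 0.106) and 4.39 (SE 0.302). The genes are near-identical copies, so the split of reads between them is uncertain. Akap5, a scaffold that ties protein kinase A to the membrane, stood at 1.52, 0.884 and 1.13 CPM in the LT-HSC controls, 25.5, 28.4 and 16.6 in the LT-HSC mutants, 3.93, 3.49 and 3.97 in the MPP controls and 56.5, 44.6 and 45.8 in the MPP mutants. It too was separated in both cell types (3.96, SE 0.192, adjusted p = 4.85e-08).

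A few partners of SETDB1 were higher by a modest ratio, and most were not called. Of 19 tested genes of histone H3 lysine 9 methylation and the HUSH complex, 3 were called higher and 0 lower, beside 9.31% of all tested genes called higher, and the median was 0.02. With either the hepatoblast or the macrophage sum 0 were called. Fam208a, which encodes the HUSH scaffold TASOR, stood at 34.5, 30.1 and 34.1 CPM in the LT-HSC controls, 67.7, 40.6 and 62.8 in the LT-HSC mutants, 33.6, 36.2 and 30.8 in the MPP controls and 73.4, 76.4 and 66.4 in the MPP mutants. Morc2a, an ATPase that works with HUSH, stood at 48.9, 42.6 and 50.6 CPM in the LT-HSC controls, 75.3, 59.7 and 87.4 in the LT-HSC mutants, 51.8, 60.1 and 55.4 in the MPP controls and 99.1, 92.6 and 98.4 in the MPP mutants. For both, all mutants lay above all controls within each cell type, with shared differences of 0.95 (SE 0.121) and 0.72 (SE 0.0923), both at adjusted p = 0.000403. Atf7ip, the cofactor that stabilises SETDB1, had 0.54 (adjusted p = 0.0238). Trim28 (-0.02, adjusted p = 0.951) and Mphosph8, the HUSH reader of the mark (0.08, adjusted p = 0.573), were not called. Cell cycle genes showed a similar small shift: 7 of 32 tested were called higher, beside 9.31% of all tested genes, 0 lower, with a median of 0.13. They were Plk1 (0.56), Ube2c (0.51), Mcm2 (0.21), Cdc20 (0.45), Ccnb1, Birc5 and Aurka, mostly genes of mitosis, and 0 members were called with Cre-positive controls only. The count was 4 without MPP control 2, MPP control 3 or MPP mutant 2.

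The genes lower in mutants of both cell types were of other kinds: growth factors and imprinted genes, adhesion and chemokine receptors, lymphoid genes, and markers of macrophages and hepatoblasts. The 12 with the smallest p under the same conditions were Plbd1, Igf1, Ccr2, Jun, Plekhg1, H19, Vcam1, Dlk1, Dhrs3, Il7r, Meg3 and Trf. Trf, Dlk1 and Vcam1 are themselves markers of hepatoblasts or macrophages, so these other cells are described first.

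**Figure D3:**
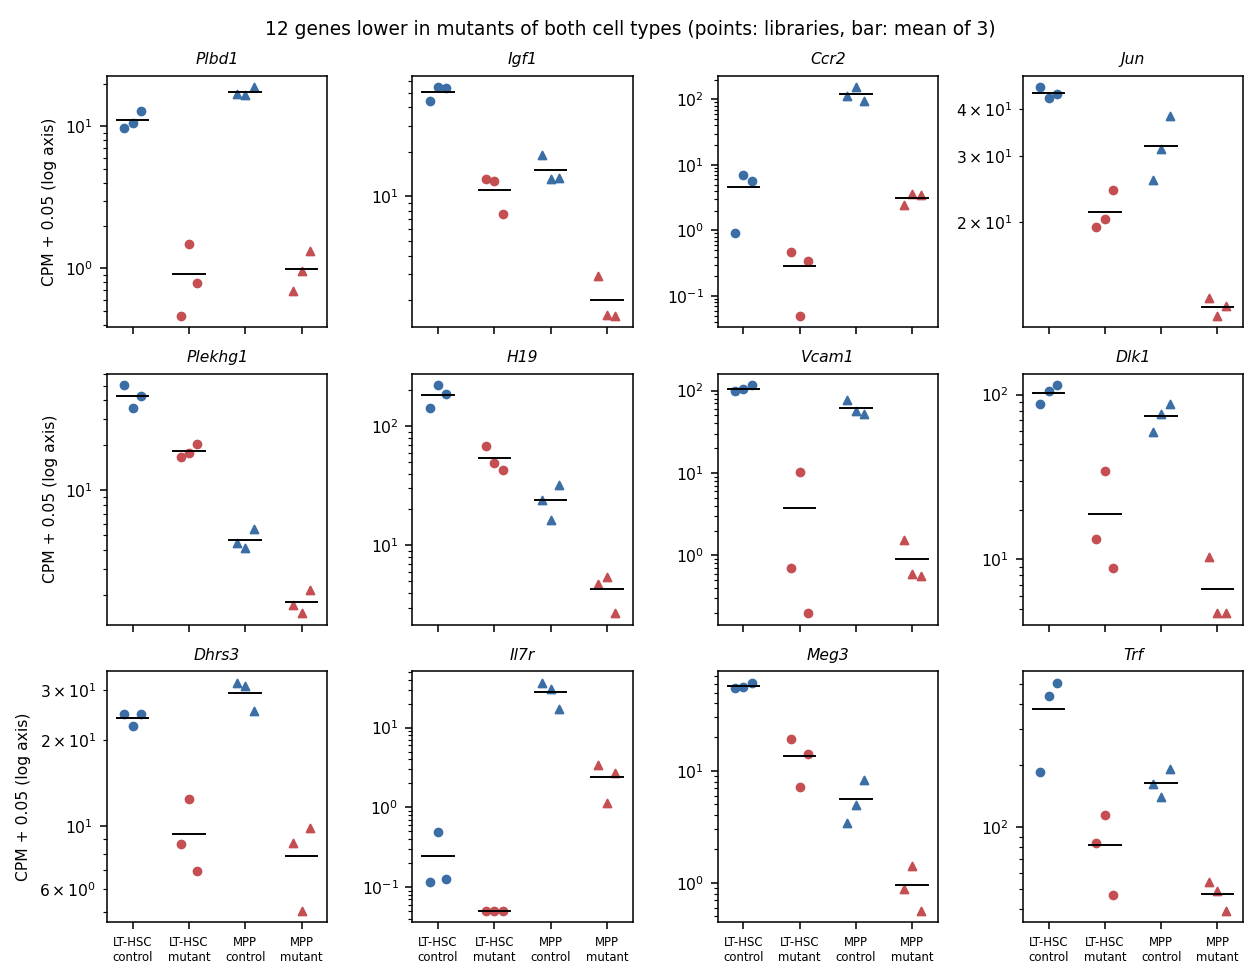
CPM plus 0.05 on a log axis in each of the 12 libraries (circles LT-HSC, triangles MPP, blue controls, red mutants) for the 12 genes named as most firmly lower, with a bar at each group's mean. In each panel the 3 mutants of a cell type lie below its 3 controls.

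Markers of hepatoblasts, the liver's own progenitors, were lower in the mutants. Their summed CPM was 595, 1943 and 1972 in the LT-HSC controls, 317, 525 and 105 in the LT-HSC mutants, 409, 292 and 622 in the MPP controls and 134, 144 and 109.9 in the MPP mutants. Of 20 members, all tested, 12 were called lower (10.3% of all tested genes were), 0 higher, and the median difference was -2.41. Alb, serum albumin, ranged from 0.664 CPM in LT-HSC mutant 3 to 250.2 in LT-HSC control 3. Ttr, transthyretin, was at 10.2, 51.4 and 43.9 CPM in the LT-HSC controls and 2.96, 4.41 and 0.147 in the LT-HSC mutants. The groups did not overlap in summed CPM in either cell type, but LT-HSC control 1 was well below its 2 group mates. The number of members called lower was between 4 and 6 without LT-HSC control 2, LT-HSC control 3, MPP control 3, MPP mutant 1 or MPP mutant 3.

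Markers of macrophages were lower too, apart from 1 library. Their summed CPM was 1635, 2049 and 2184 in the LT-HSC controls, 615, 2112 and 712 in the LT-HSC mutants, 2484, 2518 and 1784 in the MPP controls and 591, 464 and 644 in the MPP mutants. LT-HSC mutant 2 lay within the controls' range, and the other 5 mutants lay below every control. Of 19 tested members (20 listed) 9 were called lower and 0 higher, and 17 were called lower without LT-HSC mutant 2. Vcam1, among the 9, passed the filter on low counts through the controls and so had to differ. The 9 are therefore a description, not to be read against the 10.3% of all tested genes called lower. Vcam1, an adhesion molecule of macrophages and stroma that some stem cells carry, stood at 97.5, 103 and 116 CPM in the LT-HSC controls, 0.659, 10.2 and 0.147 in the LT-HSC mutants, 77.0, 57.0 and 51.6 in the MPP controls and 1.47, 0.544 and 0.508 in the MPP mutants. Its shared difference was -5.40 (SE 0.615). Cd5l, a secreted macrophage protein, fell by 3.73 on the log2 scale (adjusted p = 0.000918), and Emr1, which encodes F4/80, fell by 1.99. The labels describe lysis of red cells and enrichment for Lin- cells ahead of sorting, steps that deplete mature blood cells. In bulk RNA, fewer cells of a type and less of its RNA per cell cannot be told apart.

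**Figure D4:**
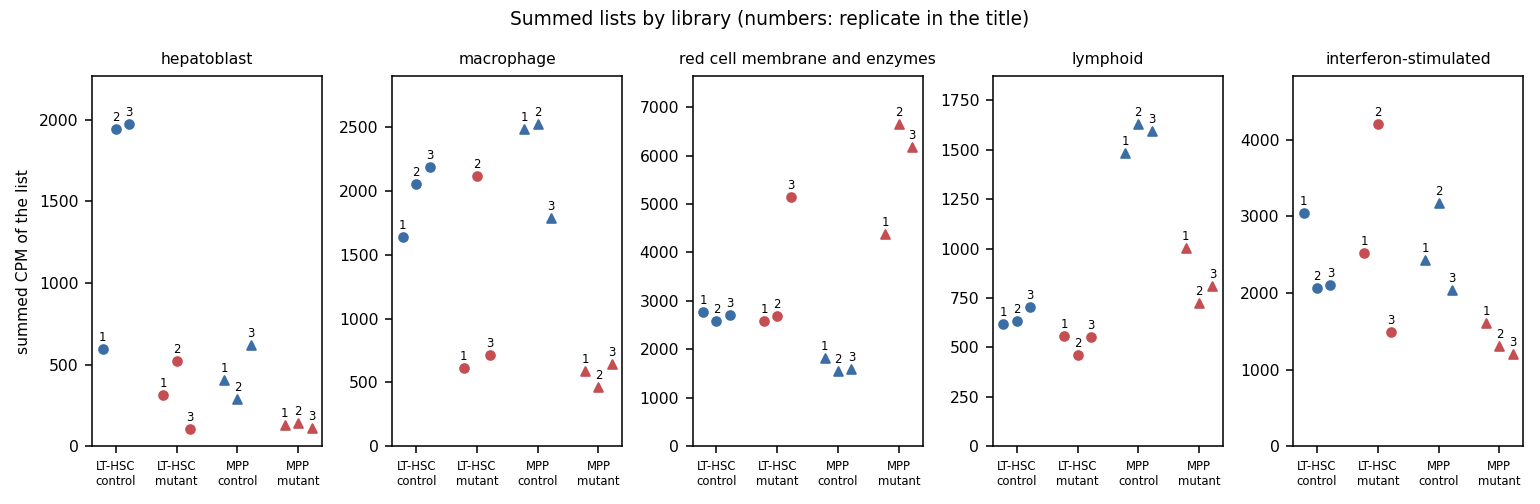
Summed CPM of 5 gene lists in each library (circles LT-HSC, triangles MPP, blue controls, red mutants, with the replicate number above each point). Hepatoblast sums are lower in all mutants, macrophage sums are lower in 5 of 6, and red cell and interferon sums of the LT-HSC mutants are spread by single libraries.

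Each sum was also entered into the fit as a covariate. Both sums nearly follow genotype. Hepatoblast sums did not overlap between mutants and controls in either cell type. Macrophage sums of all mutants but LT-HSC mutant 2 lay below every control. A covariate so close to genotype widens the standard error of the genotype effect. A kept or a lost call therefore cannot separate the sum from genotype. With the hepatoblast sum, 113 genes were called (69 higher, 44 lower), and with the macrophage sum 236 (140 higher, 96 lower). The sizes of the effects changed less than the counts. Over the 1234 genes called higher without a covariate, the median difference was 0.45 and 0.37 with these covariates, against 0.44 without. Over the 1362 genes called lower without a covariate, it was -0.67 and -0.65, against -0.76. The median standard error of the same 1234 higher genes was 0.181 and 0.17, against 0.103. All 12 genes named as firmly higher stayed called under both covariates. Of the 12 lower ones, 7 stayed called with the hepatoblast sum and 8 with the macrophage sum, and each lost call is given with its gene. With the hepatoblast and the macrophage sum, the members called higher numbered 1 and 1 for the red cell membrane and enzymes (11 without a covariate), 1 and 5 for glycolysis (5 without) and 0 and 3 for the cell cycle (7 without). Those called lower numbered 0 with either sum for megakaryocyte (5 without), endothelial (6 without) and MHC genes (5 without). Whether either cell type has a part in the lower genes was not tested, since these fits cannot separate the sums from genotype.

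Plbd1, a phospholipase of myeloid cells, was the firmest gene among those lower. It stood at 9.77, 10.5 and 12.9 CPM in the LT-HSC controls, 0.412, 1.44 and 0.737 in the LT-HSC mutants, 16.9, 16.7 and 18.8 in the MPP controls and 0.644, 0.907 and 1.27 in the MPP mutants. The highest mutant was at 1.44 CPM and the lowest control at 9.77 CPM (-3.95, SE 0.255, adjusted p = 9e-07), and the call stayed under both covariates. Igf1, insulin-like growth factor 1, stood at 43.5, 54.0 and 53.7 CPM in the LT-HSC controls, 13.0, 12.6 and 7.52 in the LT-HSC mutants, 18.98, 13.0 and 13.3 in the MPP controls and 2.85, 1.54 and 1.53 in the MPP mutants. It was higher in LT-HSC than in MPP in either genotype and lower in each mutant group than in its controls (-2.51, SE 0.218), also under both covariates. Jun, a component of the AP-1 transcription factor, stood at 45.6, 42.7 and 43.7 CPM in the LT-HSC controls, 19.3, 20.2 and 24.2 in the LT-HSC mutants, 25.8, 31.2 and 38.4 in the MPP controls and 12.4, 11.2 and 11.9 in the MPP mutants. Its difference was smaller and even (-1.05 in LT-HSC and -1.43 in MPP), and it also kept its call under both covariates. Plekhg1, an activator of small GTPases, stood at 50.6, 35.8 and 42.7 CPM in the LT-HSC controls, 16.7, 17.6 and 20.5 in the LT-HSC mutants, 4.40, 4.07 and 5.46 in the MPP controls and 1.66, 1.45 and 2.12 in the MPP mutants. The level was far higher in LT-HSC than in MPP, while the mutants were lower by a similar ratio in each (-1.23 and -1.40). Dhrs3, which reduces retinal, stood at 24.8, 22.4 and 24.6 CPM in the LT-HSC controls, 8.65, 12.4 and 6.93 in the LT-HSC mutants, 31.9, 31.1 and 25.3 in the MPP controls and 8.65, 4.99 and 9.83 in the MPP mutants. The groups did not overlap, but its adjusted p was 0.0579 with the hepatoblast sum and 0.0712 with the macrophage sum, against 0.000228 without.

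Some imprinted genes fell. Of 21 tested (27 listed) 8 were called lower and 0 higher for the shared effect, beside 10.3% of all tested genes called lower, with a median of -0.37, and 17 of the 21 had negative values in both cell types. Within LT-HSC 4 were called lower and 0 higher, and within MPP 7 lower and 2 higher (Grb10 at 0.66 and Snrpn at 0.59). Of all tested genes, 0.883% were called lower within LT-HSC, and 10.2% lower and 10.9% higher within MPP. H19, a maternally expressed RNA that limits growth, stood at 141, 221 and 185 CPM in the LT-HSC controls, 68.7, 49.4 and 43.1 in the LT-HSC mutants, 24.1, 16.4 and 31.8 in the MPP controls and 4.69, 5.35 and 2.63 in the MPP mutants. Igf2, its paternally expressed neighbour, stood at 145, 180.4 and 183 CPM in the LT-HSC controls, 34.0, 52.5 and 20.4 in the LT-HSC mutants, 7.94, 4.90 and 19.01 in the MPP controls and 2.21, 2.18 and 1.02 in the MPP mutants. H19 and Igf2 are expressed from opposite parental copies, and both were lower (-2.08 and -2.36). Dlk1, a Notch-like ligand of fetal liver, stood at 87.3, 105 and 114 CPM in the LT-HSC controls, 13.3, 34.4 and 8.78 in the LT-HSC mutants, 58.9, 75.9 and 87.9 in the MPP controls and 10.3, 4.72 and 4.66 in the MPP mutants. Meg3, the maternally expressed RNA of the same locus, stood at 54.7, 55.6 and 61.2 CPM in the LT-HSC controls, 19.11, 7.10 and 14.2 in the LT-HSC mutants, 3.39, 4.90 and 8.18 in the MPP controls and 0.828, 1.36 and 0.508 in the MPP mutants. Again both partners of a locus were lower (-2.94 and -2.27), as was Rian, a further RNA there (-1.56). Peg13, Sgce and Ndn were the other called members, at -0.55, -0.63 and -0.37. With the hepatoblast sum as covariate 0 imprinted members were called, at adjusted p = 0.0703 for H19, 0.0593 for Dlk1 and 0.0608 for Meg3. With the macrophage sum 5 were. Dlk1 is itself a member of the hepatoblast list.

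The fetal stem cell programme overlaps with these genes. Of 12 tested members (13 listed) 5 were called lower, beside 10.3% of all tested genes, and 0 higher. The 5 were H19, Dlk1, Igf2, Hmga2 and Arid3a. With the hepatoblast sum 0 were called lower, and with the macrophage sum 2 were called lower and 1 higher. Hmga2, a chromatin protein of fetal stem cells, stood at 165, 156 and 175 CPM in the LT-HSC controls, 116, 116 and 103 in the LT-HSC mutants, 307, 286 and 256 in the MPP controls and 102, 79.9 and 79.2 in the MPP mutants. Mutants were lower without overlap in both, with a larger difference in MPP (adjusted p = 0.0151 for the difference of the effects). The shared effect of Hmga2 was not called with either sum, nor with each table number used once and all LT-HSC libraries kept. Lin28b, the RNA-binding protein upstream of Hmga2 in fetal stem cells, was not called (0.04, adjusted p = 0.839).

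Some stem cell genes were mildly lower. Of 26 tested members, 8 were called lower and 0 higher, beside 10.3% of all tested genes called lower, with a median of -0.25. Within LT-HSC 0 were called, and within MPP 8 were called lower and 2 higher (Mllt3 at 0.68 and Gfi1b at 0.61). Of all tested genes, 10.2% were called lower and 10.9% higher within MPP. With the hepatoblast sum 0 were called and with the macrophage sum 1. Hoxa9, a homeobox factor of stem cell renewal, stood at 127, 131 and 116 CPM in the LT-HSC controls, 99.9, 76.04 and 74.8 in the LT-HSC mutants, 83.6, 96.4 and 112 in the MPP controls and 59.9, 43.8 and 51.4 in the MPP mutants. The 3 mutants of each cell type lay below the 3 controls (-0.74, SE 0.113). Esam (-0.57) and Robo4 (-0.74), both surface molecules of stem cells and endothelium, Tek (-0.40), Hlf (-0.54) and Ndn were also called. Mecom, a factor of stem cell quiescence, was not called (-0.04, adjusted p = 0.884). Only 1 of the 26 was called with Cre-positive controls only. Megakaryocyte genes had 5 of 19 tested members lower and 0 higher, 8 without LT-HSC mutant 1, and were led by Clec1b, a platelet receptor (log2 fold change of -3.31 (SE 0.46, adjusted p = 0.000716)). Selp, P-selectin of platelets, had -1.39, Thbs1, thrombospondin, -2.05 and Pf4, platelet factor 4, -1.38. Endothelial genes had 6 of 14 tested members lower and 1, Fcgr2b, higher. The megakaryocyte and endothelial counts stand beside 10.3% of all tested genes called lower and 9.31% called higher.

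Most of the tested lymphoid genes fell. Of 18 tested (23 listed) 12 were called lower and 0 higher, with a median of -1.11, and the median was -0.41 in LT-HSC (-0.31 with 3 members without a mutant count set at their bound) and -1.34 in MPP. Members such as Rag1 passed the filter on low counts through the MPP controls and so had to differ. The 12 are therefore a description, not to be read against the 10.3% of all tested genes called lower. Flt3, the receptor that marks lymphoid-primed progenitors, stood at 132, 139 and 149.8 CPM in the LT-HSC controls, 65.6, 52.0 and 78.2 in the LT-HSC mutants, 402, 478 and 490.3 in the MPP controls and 274, 204 and 246 in the MPP mutants. It fell in both cell types alike (-1.10 in LT-HSC, -0.92 in MPP). Il7r, the interleukin 7 receptor of early lymphocytes, stood at 0.0660, 0.442 and 0.0754 CPM in the LT-HSC controls, 0, 0 and 0 in the LT-HSC mutants, 36.5, 30.8 and 17.1 in the MPP controls and 3.31, 1.09 and 2.63 in the MPP mutants. Its LT-HSC controls held 8 counts in all and the LT-HSC mutants 0, so its shared call rests on MPP. Rag1, the recombinase of antigen receptor genes, likewise stood at 20.4, 14.95 and 10.1 CPM in MPP controls and 1.38, 0.454 and 2.12 in MPP mutants and at no more than 0.198 in LT-HSC. Ccr9, a chemokine receptor that guides cells to the thymus, was at 90.7, 62.3 and 71.3 CPM in the MPP controls and 3.22, 1.91 and 2.12 in the MPP mutants. Ebf1, Blnk, Cd79a and Cd79b, genes of early B cells, Satb1, Notch1, Lax1 and Cd7 were the other members called. Under the hepatoblast sum 2 of the 18 were called and under the macrophage sum 1, and with Cre-positive controls only 4. Il7r was at -3.60 without a covariate, -3.88 (adjusted p = 0.0897) with the hepatoblast sum and -0.85 (adjusted p = 0.675) with the macrophage sum.

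Receptors for chemokines and cytokines fell in part, with 11 of 20 tested members lower, beside 10.3% of all tested genes, 1 higher and a median of -0.63. The 11 lower calls were 1 with the hepatoblast sum, 0 with the macrophage sum and 5 with Cre-positive controls only. Ccr2, which guides monocytes out of the marrow, stood at 0.858, 6.999 and 5.73 CPM in the LT-HSC controls, 0.412, 0 and 0.295 in the LT-HSC mutants, 114, 152 and 94.1 in the MPP controls and 2.39, 3.54 and 3.47 in the MPP mutants. The LT-HSC level was low in controls and lower in mutants, and in MPP the gap was wide (-5.05, SE 0.476), with an adjusted p of 0.0844 under the macrophage sum. The 1 gene higher was Il1rl1, the interleukin 33 receptor of mast cells and basophils, at 8.05, 4.13 and 4.60 CPM in the LT-HSC controls, 17.4, 11.6 and 20.1 in the LT-HSC mutants, 7.64, 6.65 and 3.39 in the MPP controls and 33.1, 54.2 and 39.3 in the MPP mutants. Its groups did not overlap (2.20, SE 0.307). Csf3r, the receptor for granulocyte colony-stimulating factor, fell evenly (-0.86 and -0.94), whereas 18 of 21 tested granulocyte and monocyte genes were not called. Prss34, a basophil protease that passed the filter through the controls, had 183 counts over the controls and 0 over the mutants. It was at least 53.9-fold lower, with nearly all of its counts in MPP. Hdc, which makes histamine in the same cells, was higher (0.60), so the 7 tested mast cell and basophil genes did not move one way.

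Cathepsins, the proteases of lysosomes, fell with 9 of 15 tested members called lower, beside 10.3% of all tested genes, 0 higher and a median of -0.57. Ctsh (-2.42), Ctsl (-0.78), Ctsf (-1.12) and Ctsa (-0.57) led. Ctss, which macrophages express, stood at 31.6, 46.6 and 48.5 CPM in the LT-HSC controls, 4.53, 48.2 and 6.34 in the LT-HSC mutants, 126, 125 and 97.0 in the MPP controls and 19.9, 16.6 and 18.6 in the MPP mutants. LT-HSC mutant 2 lay at the level of the controls for Ctss, as for the macrophage sum. The count was 0 with either covariate and 1 with Cre-positive controls only. Trf, transferrin, which hepatoblasts secrete, stood at 185, 434 and 505 CPM in the LT-HSC controls, 84.2, 114 and 47.0 in the LT-HSC mutants, 162, 141 and 192 in the MPP controls and 54.0, 48.7 and 39.1 in the MPP mutants. The groups did not overlap (-2.003), and it was at -0.73 (adjusted p = 0.0397) with the hepatoblast sum, to which it belongs, and at -1.69 (adjusted p = 0.0798) with the macrophage sum.

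**Figure D5:**
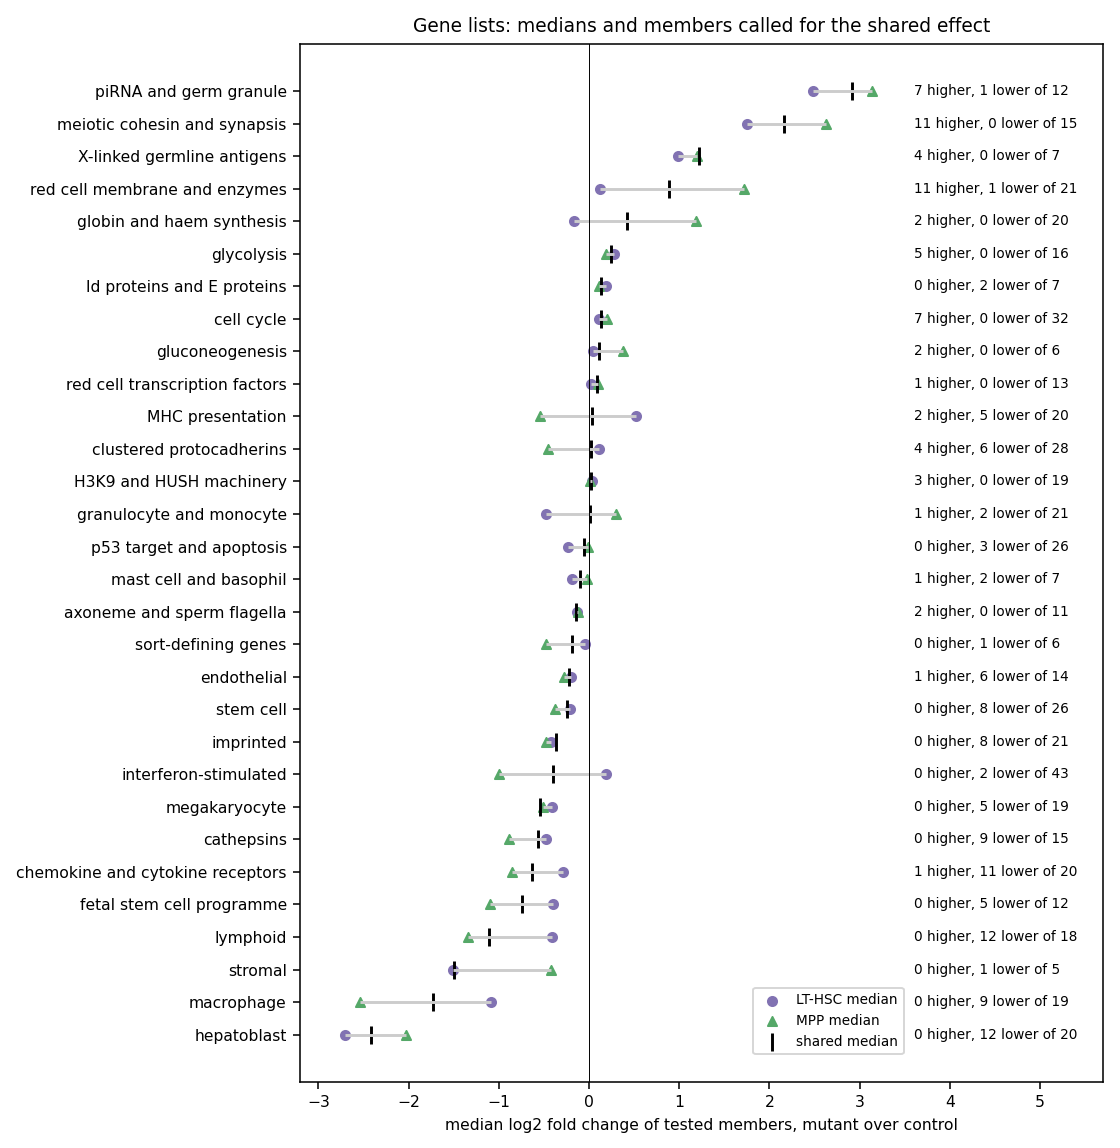
Median log2 fold change of the tested members of each of 30 gene lists in LT-HSC (circle), in MPP (triangle) and for the shared effect (bar), with the number of members called for the shared effect at the right. Meiotic and piRNA genes lie at 2 or above for the shared effect, macrophage and hepatoblast markers below -1.7, and interferon, MHC, red cell and globin lists have medians far apart in the cell types. The medians leave out members that did not pass the filter on low counts. Some meiotic and piRNA members passed it only through the mutants, so the medians of these lists are a description.

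Some genes were called only when both cell types were fitted together. The firmest of the 289 higher ones were Npm3, Lrrc8b, Cul1, Pcdhgb4, Utp23 and Loh12cr1. Cul1, the scaffold of SCF ubiquitin ligases, stood at 219, 201 and 194 CPM in the LT-HSC controls, 257, 225 and 248 in the LT-HSC mutants, 202, 206 and 193 in the MPP controls and 233, 233 and 237 in the MPP mutants. All mutants were above all controls by a small margin, and the effects of 0.25 and 0.23 had adjusted p of 0.135 and 0.0534 within the cell types, against 0.00905 for the shared effect of 0.24 (SE 0.0526). Lrrc8b, a subunit of volume-regulated anion channels, had 0.74. Npm3, a nucleolar chaperone, and Utp23, a factor of ribosome assembly, had 0.59 and 0.42. Among the 413 lower ones were Luc7l3, Tmem80, Sh2d4a, Itih3, Rasgrp2 and Dnase1l1. Luc7l3, a splicing factor, stood at 158, 179 and 173 CPM in the LT-HSC controls, 147, 124 and 128 in the LT-HSC mutants, 162, 158 and 156 in the MPP controls and 139.7, 133 and 124 in the MPP mutants. Here also no values overlapped within a cell type (-0.31, SE 0.0615). Rasgrp2, a Rap1 activator of platelets, had -0.47, and Itih3, a protein secreted by liver cells, -3.08. Every gene named in this paragraph lost its call with the hepatoblast sum as a covariate. Each also lost it with each table number used once and all LT-HSC libraries kept, a fit on fewer libraries.

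An average hides genes whose effect differed between the cell types. Ahsa2, which belongs to a family of HSP90 activators, stood at 90.6, 85.9 and 78.5 CPM in the LT-HSC controls, 151, 144 and 147 in the LT-HSC mutants, 57.9, 68.8 and 69.7 in the MPP controls and 448, 444 and 376 in the MPP mutants. It was higher in both sets of mutants, with 0.79 in LT-HSC and 2.69 in MPP, and the difference of 1.90 was called (adjusted p = 0.000165). Postn, Lpar1, Hmga2, Id2 and Cyb561a3 had negative effects in both, larger in MPP, and within LT-HSC those of Postn and Hmga2 were called. Id2, an inhibitor of E proteins, stood at 22.5, 38.1 and 36.9 CPM in the LT-HSC controls, 21.8, 24.6 and 16.7 in the LT-HSC mutants, 117, 136 and 109 in the MPP controls and 22.8, 22.5 and 24.8 in the MPP mutants. The LT-HSC groups overlapped and the MPP groups were far apart. For 26 of the 50 genes with a called difference the 2 effects had opposite signs. Irf8, a factor of monocyte and dendritic fate, stood at 59.9, 50.1 and 46.7 CPM in the LT-HSC controls, 69.0, 62.1 and 53.5 in the LT-HSC mutants, 94.1, 129 and 106 in the MPP controls and 41.1, 31.2 and 40.3 in the MPP mutants. It was lower in MPP mutants (-1.54) and not called in LT-HSC (0.24), so its shared effect of -0.65 describes neither. Lyz2, lysozyme of myeloid cells (0.15 and -1.92), Ppfia4, Coro2a and Slfn2 had the same form, and Itsn1 was higher in MPP mutants alone (-0.07 in LT-HSC and 1.49 in MPP).

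Interferon-stimulated genes were poorly described by an average. Of 43 tested members 2 were called lower, Gbp2 and Trim30a, and 0 higher, with a median of -0.40 that joined 0.19 in LT-HSC and -1.0003 in MPP. Within MPP 16 were called lower and within LT-HSC 0 in either direction. Of all tested genes, 10.3% were called lower for the shared effect and 10.2% within MPP. The summed CPM was 3046, 2065 and 2109.6 in the LT-HSC controls, 2523, 4198 and 1495 in the LT-HSC mutants, 2426, 3168 and 2039.9 in the MPP controls and 1611, 1312 and 1205 in the MPP mutants. LT-HSC mutant 2 was the highest of the 12 libraries, and without it 19 members were called lower. Irf7, the factor that amplifies interferon responses, stood at 81.0, 33.8 and 32.7 CPM in the LT-HSC controls, 183 in LT-HSC mutant 2 and no more than 49.8 in the other LT-HSC mutants, 52.8, 76.5 and 35.0 in the MPP controls and 19.05, 13.8 and 11.8 in the MPP mutants. LT-HSC mutant 2 again stood above the rest. Beside 9.31% and 10.3% of all tested genes called higher and lower, MHC genes were mixed, with 2 of 20 tested higher (H2-Q7 and H2-K1, of class I) and 5 lower (H2-Aa, H2-Eb1, H2-DMa and Cd74, of class II presentation, and Tapbp). H2-Eb1 was at adjusted p = 0.0601 by limma-voom with the table number as a block. Leaving out any 1 of the MPP mutants left 3 called lower. H2-Q7 was higher in LT-HSC mutants (2.61) and at no more than 0.644 CPM in any MPP library. Clustered protocadherins had 4 of 28 tested higher and 6 lower, with higher calls near the share of all genes. The lower calls numbered 3 or 2 without LT-HSC control 3 or any 1 of the MPP libraries. Their transcripts share exons, so the split of reads among them is uncertain. Targets of p53 had 3 of 26 lower (Trp53inp1, Phlda3 and Btg2), near the share of all genes, and 0 higher (5 lower without LT-HSC mutant 1). Btg2 was at adjusted p = 0.0776 with that block, and Cdkn1a, a cell cycle inhibitor among them, was not called (0.05). Id and E proteins had 2 of 7 tested lower and 0 higher, stromal genes 1 of 5 lower and 0 higher, and genes that define the sort 1 of 6 lower and 0 higher. These small counts stand beside the 10.3% of all tested genes called lower.

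Several of these genes are neighbours. Of 305 genes higher by at least 2-fold, 35 (11.48%) lay next to another such gene among the tested genes, with starts within 100000 bases, and of 493 placed genes lower by as much, 63 (12.8%) did. In GRCm38.p6 coordinates, Fbp2 spans chr13:62836884-62858400 and Fbp1 chr13:62864753-62888298, with starts 27869 bases apart. Tex19.2 (chr11:121116215-121118677) and Tex19.1 (chr11:121146143-121148314) start 29928 bases apart, and Gstp1 (chr19:4035411-4037912) and Gstp2 (chr19:4040288-4042221) 4877 bases apart. Dnah8 (chr17:30626935-30875762) and M1ap (chr6:82946908-83030309) each had a higher neighbour, 1700097N02Rik at 3.63 and Sema4f at 1.84. Among lower genes, Dlk1 (chr12:109452485-109463336), Meg3 (chr12:109540996-109571729) and Rian lay in a row, as did H19 (chr7:142575530-142578146) and Igf2 (chr7:142650768-142666816). The libraries did not keep the strand, so reads from overlapping genes on opposite strands cannot be told apart.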

How the data were processed

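RNA of 12 sorted fetal liver samples was sequenced from libraries of a SMARTer ultra low input kit, which marks no strand, with 10 ng of input, per the labels' protocols. The authors used STAR, RSEM and mm10, per the submitters' processing notes, which name no versions. The deposited tables hold RSEM's expected counts per gene (estimated counts, 7.13% to 7.76% of them fractional), per the file headers, for 24054 genes, of which 23949 matched RefSeq's GRCm38.p6 by transcript (23766) or symbol (183).

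Expected counts were rounded and tested with edgeR 4.0.16 (R 4.3.3): TMM scaling, filterByExpr over the 4 groups (minimum count 10, minimum total 15), a quasi-likelihood test of genotype with cell type as an additive factor, and Benjamini-Hochberg adjustment with a threshold of 0.05. A fit of the 4 groups on the same libraries gave the effect within LT-HSC, within MPP and their difference. The test was run on simulated counts that held no difference between cell types and no variation shared between libraries. That check therefore does not cover these features of the data. CPM values use the TMM-scaled library size. DESeq2 1.42.0 and limma 3.58.1 served as alternatives. Covariates were the log2 of a list's summed CPM plus 1. Floors are 3 counts over a group, and intervals are exact 95% counting intervals.

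The quantity described, the 30 gene lists and the rule for named genes were chosen with earlier results of these data known. The rule takes Setdb1, the 12 higher and 12 lower genes described in the text (their higher genotype averaging 10 CPM or more), 6 and 6 called only for the shared effect, 6 and 6 with a called difference of effects, genes switched on or off, and up to 4 called members per list. Outside the lists, pseudogenes, genes with placeholder symbols and sex-marking genes were passed over. Other list members, the Irf7 and Ctss examples, the summed lists plotted and the neighbours were chosen after their values were seen. Some list members are not reported here.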

Additional observations from a re-analysis of the deposited data

Results flagged for a closer look

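The test of the difference between the effects in MPP and LT-HSC (edgeR's quasi-likelihood test, 4-group fit) was called for 14 of the genes named. Differences are given as the log2 effect in MPP minus that in LT-HSC. Both effects were positive for Ahsa2 (difference 1.90, adjusted p = 0.000165) and for Fcgr2b (-3.15, adjusted p = 0.0441), an inhibitory Fc receptor whose effect was larger in LT-HSC. Both were negative for Lpar1 (-2.87), Hmga2 (-1.13), Postn (-3.15), Id2 (-1.74), Cyb561a3 (-0.81) and Ctsh (-2.22), with the larger effect in MPP, and within LT-HSC only those of Hmga2, Postn and Ctsh were called. The signs were opposite for Lyz2 (-2.07), Irf8 (-1.78), Ppfia4 (-2.31), Coro2a (-1.48), Slfn2 (-2.81) and Itsn1 (1.56), and in each of these 6 the effect within LT-HSC was not called.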

How the results depend on the processing

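The shared effect was recomputed under 28 alternatives, 2 of them (each table number used once) chosen after seeing the data. The counts of genes called for the shared effect (2596, 1234 higher and 1362 lower) were within 1.5 times under other scalings, DESeq2 (3133), other filters and a Y-linked covariate. They were 5410 (2698 and 2712) with limma-voom and quality weights, 556 (242 and 314) with Cre-positive controls only, 895 (363 and 532) with the Cre transgene as a covariate, 113 (69 and 44) with the hepatoblast sum, 236 (140 and 96) with the macrophage sum, and 134 (85 and 49) with each table number used once and all LT-HSC libraries kept, a fit on 8 libraries. Keeping all MPP libraries instead gave 2885. Leaving out 1 library gave 1610 to 3679 (724 to 1757 higher, 844 to 1922 lower). Upper-quartile scaling made 36.8% of the calls higher, against 47.5%.

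Within LT-HSC (250 genes) the count was 554 with DESeq2, 158 with limma-voom and quality weights, 66 with Cre-positive controls only, 54 with LT-HSC libraries alone and 126 to 494 with 1 library left out. Within MPP (2792) it was 6419 with limma-voom and quality weights, 125 with Cre-positive controls only (1 MPP control library, assumed to vary like the other groups), 4337 with MPP libraries alone and 1156 to 3504 with 1 library left out. The difference of the effects (50) gave 334 with DESeq2, 470 with limma-voom and quality weights, 87 without a filter, 0 by edgeR with Cre-positive controls only (829 at an unadjusted p under 0.05), 24 with the replicate block and 1 to 885 with 1 library left out. Signs turned for H2-Eb1 (1.20) and Ttr (0.31) with the hepatoblast sum and for Itsn1 (-0.29), Fech (-0.30) and Ctsa (0.0323) with the macrophage sum, and the cause was not tested.

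With the title's replicate number as a replicate block, 2270 genes were called. Same-numbered controls and mutants correlated at 0.108, 0.148 and 0.175 in LT-HSC and at -0.025, -0.212 and -0.177 in MPP, so the numbers were not taken to pair the libraries. Members with few counts, such as Gtsf1 or Syce3, are limited by depth.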

Other observations

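Other pairs of neighbours moved together without being on a list. Ccl2 and Ccl7, chemokines that attract monocytes, were higher by 3.40 and 4.13 on the log2 scale, with starts 10135 bases apart. Mt1 and Mt2, the metallothioneins that bind zinc and copper, were higher by 1.26 and 1.55. Aplp1 and Kirrel2, genes best known from nervous tissue and kidney, were higher by 3.51 and 5.78, and Zar1, a maternal-effect gene of oocytes, by 6.31 beside Nfxl1 at 1.49. Among lower genes were Klrd1 and Klrk1, receptors of natural killer cells (-2.51 and -5.86), Apoe and Apoc1, apolipoproteins (-1.18 and -1.92), and P2ry12 and P2ry13, nucleotide receptors (-2.09 and -1.39). These pairs were picked after their values were seen.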
